A study of Mus musculus with 12 samples.

Results

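The 9 genes described here control the cleavage of sterol regulatory element binding proteins (SREBPs) or act on the LDL receptor and on sterol transfer. They were chosen by name: Srebf1 and Srebf2, Scap, Insig1 and Insig2, Mbtps1 and Mbtps2, Mylip and Stard4, which are 9 of the 12960 genes in the counts. All 9 passed the filter on low counts. RNA sequencing was done on bone marrow-derived macrophages (BMDMs) of wild-type (WT) mice and of mice lacking the AMPK β1 subunit in the whole body (AMPKβ1-/-, KO), without a transgene or Cre. Marrow cells of both genotypes were differentiated for 7 days with L929 medium as a source of M-CSF, and were then given 0.1% DMSO as vehicle or PF-06409577 (PF) at 10 μM, a direct activator of AMPK complexes that hold β1, for 6 h. Each of the 4 groups had 3 libraries. The age of the mice, and whether the libraries of a group came from separate mice or cultures, are not given in the sources used here, so p-values measure the spread between these samples, which may be technical.

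SREBPs are transcription factors made as precursors in the membrane of the endoplasmic reticulum, where they are bound to SCAP. When sterols are low, SCAP carries them in COPII vesicles to the Golgi, where site-1 and site-2 proteases release the part that enters the nucleus and switches on genes of cholesterol synthesis, fatty acid synthesis and LDL uptake. When sterols are high, INSIG proteins hold SCAP in place, while oxysterols acting on LXR induce Mylip, whose product (IDOL) marks the LDL receptor for degradation. Macrophages take up modified lipoproteins and become foam cells, so that the balance of sterol synthesis, uptake and export is much studied in atherosclerosis.

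The libraries held 8935609 to 14358180 counts assigned to genes, and 3 counts, the upper limit that a count of 0 allows, corresponded to 0.196 to 0.321 CPM (counts scaled to a common library size and normalised by TMM), for counting error only. Prkab1, which encodes AMPK β1, was at 43.4, 44.2 and 45.3 CPM in WT libraries with vehicle, and at 41.9, 37.3 and 37.7 CPM with PF. It was at 8.39, 7.7 and 6.05 CPM in KO libraries with vehicle and at 9.41, 9.42 and 7.9 CPM with PF, so every KO library was below every WT library (log2 fold change with vehicle −2.57 ± 0.12 SE, edgeR adjusted p = 8.85e-09). The 10 macrophage markers summed to 26100 to 30900 CPM in every library. Markers of other cells were summed over those in the counts, with 1 of 6 lymphoid, 5 of 8 granulocyte, 3 of 5 dendritic cell, 1 of 4 erythroid and 5 of 5 fibroblast markers. They reached at most 0.187 CPM for lymphoid cells, 1.39 CPM for granulocytes, 1.28 CPM for dendritic cells, 1.09 CPM for erythroid cells and 8.66 CPM for fibroblasts, the last in a KO library with vehicle. In bulk RNA, fewer cells of a type and less RNA per cell cannot be told apart. Levels also moved with the GC content of the transcript, and this trend differed between the groups. Its slope per 10 points of GC was 0.36 to 0.72 on the log2 scale in WT libraries with vehicle and −0.05 to 0.37 with PF. In KO libraries it was −0.36 to −0.10 with vehicle and −0.51 to −0.33 with PF. The members' results are therefore also given from a fit with an offset for the trend in GC content and length (the GC offset).

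PF was compared with vehicle in each genotype to see how activation of AMPK β1 changed these regulators. In WT BMDMs, Insig1 rose 1.98-fold and Stard4 rose 1.75-fold. These were 2 of the 9 members, both also past the log2 fold change of 0.8 that the study used for differentially expressed genes. Of all 10822 genes tested, 15.9% passed the test at an adjusted p below 0.05 (6.99% higher and 8.95% lower), and 1.52% also passed 0.8. The number behind that share, 1725 genes, ranged from 346 without WT PF library 3 to 3243 without WT PF library 1, and was 797 under the GC offset. At an unadjusted p below 0.05 there were 6 members, beside 35.3% of all genes. The libraries of 3 members (Insig1, Stard4 and Mbtps1) did not overlap, where 32.2% of all genes did not. In KO BMDMs, 0 of the 9 members passed the test, and 0 had an unadjusted p below 0.05, where 0.0554% of all genes passed and 4.98% had an unadjusted p below 0.05. The libraries of 1 member, Mbtps1, did not overlap there, beside 14.5% of all genes. DESeq2 and limma-voom also called 0 members there. The response of Insig1 differed between the genotypes, with an interaction (WT response minus KO response) of 1.07 on the log2 scale, as 1 of the 9 members beside 0.416% of all genes (0.176% with a larger response in WT).

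**Figure D1:**
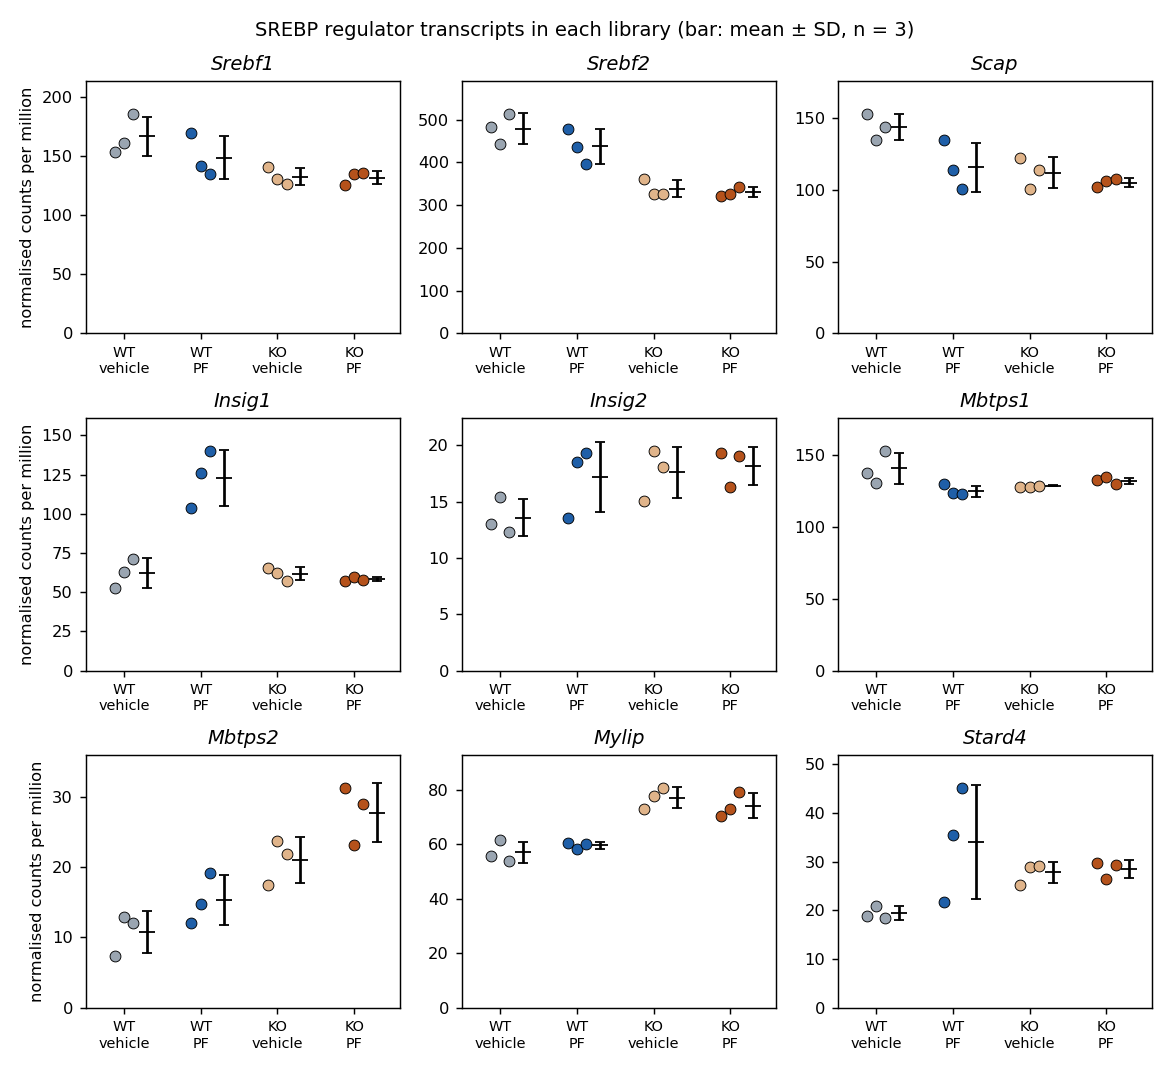
Normalised CPM of the 9 SREBP regulator genes on the y axes (linear, from 0), with the 4 groups of 3 libraries on the x axes. Points are libraries and bars are the mean ± SD (n = 3). Insig1 with PF in WT lies between 104 and 140 CPM, above all other libraries, and Mylip lies higher and Srebf2 lower in all 6 KO libraries than in all 6 WT libraries.

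Insig1 encodes an INSIG protein, which holds SCAP in place when sterols are high, and the gene is itself a target of SREBPs. It lies at chr5:28071363-28078662 on the plus strand of GRCm38 (ENSMUSG00000045294.11). It was at 52.4, 63 and 71.2 CPM in WT libraries with vehicle and at 104, 126 and 140 CPM with PF. In KO libraries it was at 65.4, 62.5 and 57.1 CPM with vehicle and at 57.4, 59.7 and 58 CPM with PF. The WT libraries with PF thus lay above all others, while the remaining 3 groups overlapped. The log2 fold change was 0.99 ± 0.12 SE in WT (95% interval 0.74 to 1.23, adjusted p = 0.000454) and −0.08 ± 0.12 in KO (−0.33 to 0.17, adjusted p = 0.982). The interaction of 1.07 ± 0.16 SE had an adjusted p of 0.0133. Its call was lost when library 2 of KO with vehicle or library 1 of KO with PF was left out, with values of 1.06 in both cases and adjusted p values of 0.0505 and 0.0577. Under the GC offset, the rise in WT was 0.90 and the interaction 0.99 (adjusted p 6.71e-05 and 0.00327). Lrp12, which encodes a receptor of the LDL receptor family, was among the genes whose centred log2 CPM ran close to Insig1 over the 12 libraries. Its root mean square difference from Insig1 was 0.16 on the log2 scale, where the SD of Insig1 itself was 0.48.

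The promoters of Insig1, Srebf2 and Mylip are shown. Insig1 was the only member with an interaction past the test. Srebf2 and Mylip kept both their direction and an adjusted p below 0.05 between the genotypes, with vehicle and with PF, in all 22 settings tried. Mbtps2 also kept an adjusted p below 0.05 in all 22, but changed sign under the GC offset, and its promoter is not shown. Each run is the 250 bases before the RefSeq start on GRCm38.p6, 5′ to 3′ on the gene's strand (plus for all 3), at chr5:28071162-28071411, chr15:82147019-82147268 and chr13:45389492-45389741. Capitals mark CCAAT boxes (read on either strand, so also as ATTGG) and the E box CACGTG.
Insig1: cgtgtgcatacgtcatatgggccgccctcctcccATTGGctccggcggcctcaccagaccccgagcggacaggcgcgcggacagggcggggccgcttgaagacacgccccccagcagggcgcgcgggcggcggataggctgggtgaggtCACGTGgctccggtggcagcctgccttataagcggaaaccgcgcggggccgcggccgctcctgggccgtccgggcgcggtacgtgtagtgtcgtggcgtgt
Srebf2: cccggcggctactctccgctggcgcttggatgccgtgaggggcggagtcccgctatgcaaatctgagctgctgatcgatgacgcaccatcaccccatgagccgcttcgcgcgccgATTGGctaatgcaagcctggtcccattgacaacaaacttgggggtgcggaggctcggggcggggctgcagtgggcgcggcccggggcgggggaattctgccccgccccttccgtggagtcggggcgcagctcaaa
Mylip: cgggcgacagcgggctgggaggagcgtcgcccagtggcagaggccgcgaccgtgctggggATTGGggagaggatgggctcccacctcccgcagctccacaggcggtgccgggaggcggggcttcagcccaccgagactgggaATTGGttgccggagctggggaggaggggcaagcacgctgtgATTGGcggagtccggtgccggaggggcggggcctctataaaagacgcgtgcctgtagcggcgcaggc
Motifs were searched on both strands from 250 bases before to 50 bases after each start. NF-Y, which binds CCAAT, and Sp1, which binds the GC box GGGCGG, are known partners of SREBPs at their targets. The Insig1 window held 1 CCAAT box at 216 bases before the start, 3 GC boxes and an E box at 101 bases before the start. The Srebf2 window held 1 CCAAT box at 135 bases before the start and 5 GC boxes. The Mylip window held 3 CCAAT boxes, at 190, 108 and 67 bases before the start, and 1 GC box. A sterol regulatory element core spelled TCACNCCAC, one form of the site that SREBPs bind, was in 0 of the 13 windows of the 8 members searched, and was in 1.24% of the 32851 promoters. CCAAT was in 37.41% of all promoters, GGGCGG in 35.66% and CACGTG in 7.15%. The 8784 tested genes with a promoter were counted per gene, with a match in any of its windows. Their shares were 43.28%, 70.16% and 12.25%, and 1.37% held the core, so a GC box was common in expressed genes. The shares of all promoters count single windows, so they differ from these in unit as well as in genes. The search says only whether these letters are in these windows.

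Srebf2, at chr15:82147181-82205379 (plus strand, ENSMUSG00000022463.8), encodes SREBP-2, the form that chiefly drives cholesterol synthesis. It was lower in KO BMDMs, with vehicle and with PF. It was at 483, 442 and 513 CPM in WT libraries with vehicle and at 360, 326 and 326 CPM in KO libraries with vehicle. With PF it was at 478, 435 and 397 CPM in WT and at 322, 325 and 343 CPM in KO. None of the 6 KO libraries overlapped the WT libraries. The log2 fold change of KO over WT was −0.51 ± 0.084 SE with vehicle (adjusted p = 0.000199) and −0.40 ± 0.084 with PF (adjusted p = 0.00129). The GC offset gave −0.27 and −0.42 (adjusted p 0.000476 and 3.56e-06). PF itself gave −0.13 in WT (95% interval −0.31 to 0.04) and −0.03 in KO (−0.21 to 0.15), neither past the test. Under the GC offset the value in WT changed sign to 0.15 ± 0.049 SE, also short of the test (adjusted p = 0.0768).

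Srebf1, at chr11:60199089-60222581 (minus strand, ENSMUSG00000020538.15), encodes SREBP-1, which chiefly drives fatty acid synthesis. Its gene overlaps Rai1 on the opposite strand. It was at 154, 161 and 186 CPM in WT libraries and at 141, 131 and 127 CPM in KO libraries with vehicle, so the KO libraries lay below the WT libraries (log2 fold change −0.33 ± 0.096 SE, adjusted p = 0.00837). Under the GC offset the value was −0.02 (adjusted p = 0.857), and with library size in place of TMM it was −0.12 (adjusted p = 0.287). With PF the difference was −0.17 (adjusted p = 0.154). Scap, at chr9:110333288-110384950 (plus strand, ENSMUSG00000032485.14), moved in the same way with vehicle, from 153, 135 and 144 CPM in WT to 122, 101 and 114 CPM in KO (−0.36 ± 0.10, adjusted p = 0.00703). Its value was −0.04 (adjusted p = 0.67) under the GC offset. PF gave Scap a log2 fold change of −0.30 ± 0.10 in WT, with 135, 114 and 101 CPM, which missed the threshold (adjusted p = 0.0531). DESeq2 and limma-voom put that value just past it (adjusted p 0.0493 and 0.0496). Under the GC offset, PF gave Scap −0.03 in WT (adjusted p = 0.854). The transcripts of Srebf1, Srebf2 and Scap had the highest GC content of the members, at 58.4%, 57.9% and 59.1%, against a median of 50.1% over the tested genes.

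Mylip, at chr13:45389742-45412022 (plus strand, ENSMUSG00000038175.10), was higher in KO BMDMs. It was at 55.6, 61.5 and 53.9 CPM in WT libraries with vehicle and at 73, 77.7 and 80.6 CPM in KO libraries with vehicle. With PF it was at 60.5, 58.2 and 60.1 CPM in WT and at 70.4, 72.9 and 79.2 CPM in KO. The 6 KO libraries thus lay above the 6 WT libraries. The log2 fold change was 0.43 ± 0.082 SE with vehicle (adjusted p = 0.000448) and 0.31 ± 0.081 with PF (adjusted p = 0.00544), and 0.50 and 0.40 under the GC offset (adjusted p 7.09e-05 and 0.000271). Its transcript has 49.6% GC, near the median. PF gave 0.06 in WT (95% interval −0.11 to 0.24) and −0.06 in KO (−0.23 to 0.12). Within a library, where scaling has no effect, the log2 ratio of Mylip to Srebf2 counts was −3.25 to −2.84 in WT with vehicle and −2.98 to −2.72 with PF. It was −2.3 to −2.02 in KO with vehicle and −2.19 to −2.11 with PF, above all WT libraries. That order follows from the levels of Mylip and Srebf2 given above and is no further support. The ratio is also not free of the GC trend, since the transcripts have 49.6% and 57.9% GC.

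Stard4 encodes a soluble sterol carrier that is induced by SREBP-2, and lies at chr18:33199355-33213862 (minus strand, ENSMUSG00000024378.9). It was at 18.9, 21 and 18.4 CPM in WT libraries with vehicle and at 21.8, 35.5 and 45.1 CPM with PF. In KO libraries it was at 25.3, 29 and 29.1 CPM with vehicle and at 29.7, 26.4 and 29.3 CPM with PF. The WT libraries with PF were all above those with vehicle, but spread from a value close to vehicle to more than any KO library. The rise in WT was 0.81 ± 0.20 SE on the log2 scale (95% interval 0.39 to 1.23, adjusted p = 0.0182). Leaving out library 1 or 3 of WT with vehicle, or library 2 or 3 of WT with PF, put it short of the threshold (adjusted p 0.0621 to 0.0746, values 0.56 to 0.79), and leaving out library 1 of WT with PF gave 1.05 (adjusted p = 0.000222). PF gave 0.03 in KO (−0.38 to 0.44). The interaction was 0.78 ± 0.27 SE with an unadjusted p of 0.0133 and an adjusted p of 0.229. It passed only without WT PF library 1, at 1.02 (adjusted p = 0.00717), among the 21 settings of that contrast. In WT libraries 1, 2 and 3 with PF, the GC slopes were 0.367, 0.171 and −0.051 while Stard4, of 43.9% GC, was at 21.8, 35.5 and 45.1 CPM. The GC offset left the rise in WT at 0.45 ± 0.12 (adjusted p = 0.0341).

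**Figure D2:**
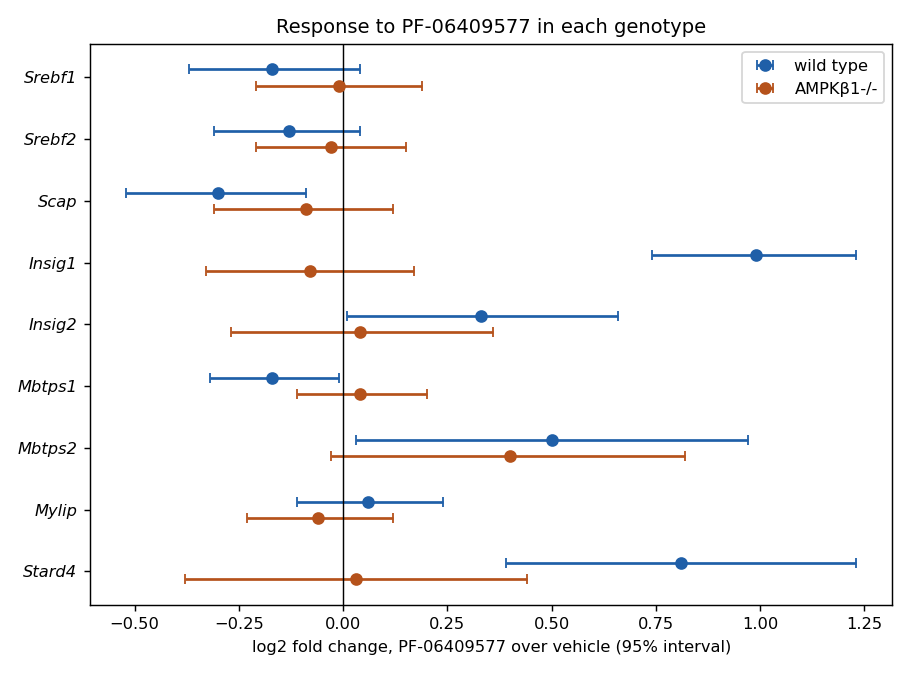
Log2 fold change of PF over vehicle on the x axis for the 9 genes on the y axis, in WT (blue) and AMPKβ1-/- BMDMs (orange). Points are edgeR estimates from 3 against 3 libraries and bars are 95% intervals. In WT 6 intervals, which are not adjusted for the number of genes, leave out 0, and of these Insig1 at 0.99 and Stard4 at 0.81 passed the adjusted test. All 9 intervals of AMPKβ1-/- BMDMs span 0.

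The remaining members did not pass the test for PF in either genotype. Insig2, the INSIG gene that is not known as an SREBP target, lies at chr1:121304353-121332589 (minus strand, ENSMUSG00000003721.14). It was at 13, 15.4 and 12.3 CPM in WT libraries with vehicle and at 13.6, 18.5 and 19.3 CPM with PF, groups that overlapped (0.33 ± 0.15 SE, adjusted p = 0.134). The log2 ratio of Insig1 to Insig2 counts was 2 to 2.52 in WT libraries with vehicle and 2.76 to 2.93 with PF, and 1.65 to 2.11 and 1.57 to 1.87 in KO libraries. Mbtps1, at chr8:119508156-119558735 (minus strand, ENSMUSG00000031835.16), encodes site-1 protease and was the steadiest member, at 123 to 153 CPM over the 12 libraries. In WT its libraries with PF lay below those with vehicle, but the value of −0.17 ± 0.072 missed the test (adjusted p = 0.113). Mbtps2, at chrX:157535371-157598715 (minus strand, ENSMUSG00000046873.18), encodes site-2 protease and overlaps Yy2 on the same strand, so reads could be split between them. PF gave it 0.50 ± 0.22 in WT (adjusted p = 0.117) and 0.40 ± 0.20 in KO (adjusted p = 0.982). Without WT PF library 1, Srebf1, Scap, Insig2 and Mbtps2 passed the test in WT as well (−0.27, −0.42, 0.47 and 0.64, adjusted p 0.00697 to 0.0419). Under the GC offset with all libraries, these genes were at 0.10, −0.03, 0.10 and 0.06 in WT. None passed there (adjusted p 0.346 to 0.854), and Srebf1 had changed sign.

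The genotypes were compared within each treatment. The GC slopes also differed by genotype. Loss of AMPK β1 cannot be told apart here from other differences between the WT and KO mice or the preparation of their libraries. With vehicle, 7 of the 9 members passed the test, 4 higher (Mbtps2, Stard4, Mylip and Insig2) and 3 lower (Srebf2, Scap and Srebf1) in KO BMDMs. That share stands beside 59.7% of all genes tested (29.7% higher and 30% lower), so a call here was common for any gene. Only Mbtps2 also passed 0.8, as did 17.8% of all genes. The libraries of 7 members did not overlap, where 62.9% of all genes did not. With PF, 4 members passed (Mbtps2 and Mylip higher, Insig1 and Srebf2 lower) beside 47.1% of all genes (24.1% higher and 22.9% lower). The libraries of 5 did not overlap, beside 59.9% of all genes, and 2 members, Mbtps2 and Insig1, passed 0.8 beside 14.3%. Insig1 did not differ past the test with vehicle (−0.01 ± 0.12 SE, 95% interval −0.26 to 0.24, adjusted p = 0.939), and was lower in KO with PF (−1.08 ± 0.12, adjusted p = 6.94e-06). The comparisons with vehicle and with PF use separate libraries, but each shares its WT or KO libraries with the comparisons of PF against vehicle.

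Mbtps2 and Stard4, the members with the lowest GC content (40.0% and 43.9%), changed direction between the genotypes under the GC offset. Mbtps2 was at 7.38, 12.9 and 12 CPM in WT libraries with vehicle and at 17.4, 23.7 and 21.8 CPM in KO libraries, above all of the former (0.96 ± 0.21 SE, adjusted p = 0.0017). With PF it was at 12.1, 14.7 and 19.1 CPM in WT and at 31.2, 23.1 and 28.9 CPM in KO (0.85 ± 0.20, adjusted p = 0.00359). The GC offset gave −0.31 (adjusted p = 0.0315) and −0.30 (adjusted p = 0.0197). Stard4 was 0.51 ± 0.20 higher in KO with vehicle (adjusted p = 0.0378), and −0.28 under the offset (adjusted p = 0.0949). With PF the corresponding values for Stard4 were −0.26 (adjusted p = 0.266) and −0.82 (adjusted p = 3.32e-05). Insig2, whose libraries overlapped, was 0.37 ± 0.15 higher with vehicle (adjusted p = 0.0467) and 0.05 under the offset (adjusted p = 0.795). Mbtps2 and Stard4 thus changed sign and Insig2 lost its call, while Srebf2 and Mylip kept their direction and their call.

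**Figure D3:**
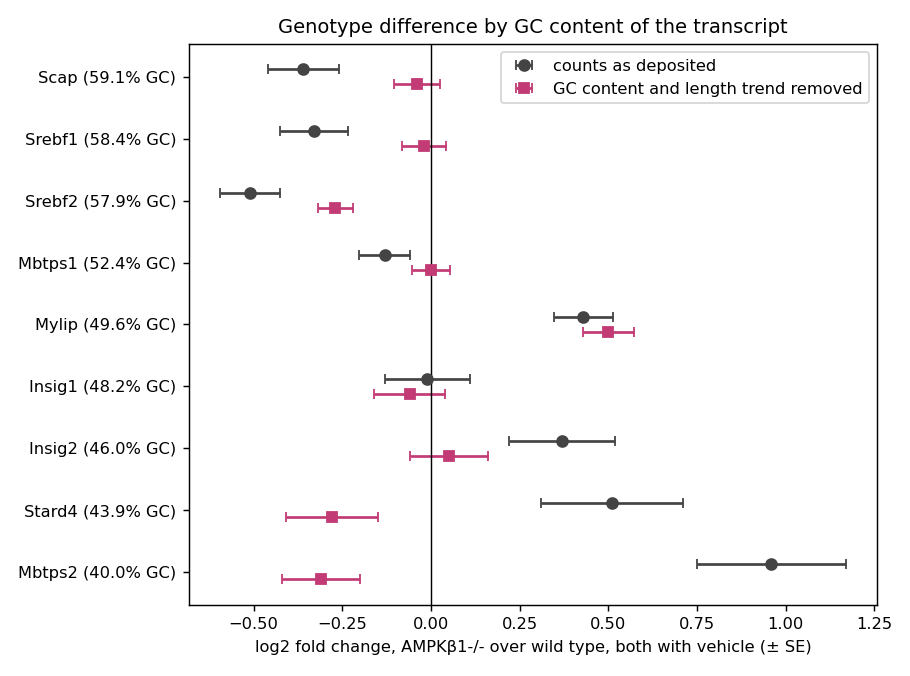
Log2 fold change of AMPKβ1-/- over WT, both with vehicle, on the x axis for the 9 genes on the y axis, ordered by the GC content of their longest coding transcript. Circles are values from the deposited counts, squares the same fit with the offset for GC content and length, and bars are ± SE (3 against 3 libraries). Mbtps2 moves from 0.96 to −0.31 and Stard4 from 0.51 to −0.28, while Mylip stays at 0.43 and 0.50 and Srebf2 at −0.51 and −0.27.

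Levels were compared between members as CPM per kilobase of the longest coding transcript. In WT BMDMs with vehicle, Srebf2 was highest at 94.4 ± 7.03 (SD, n = 3), followed by Srebf1 at 38.8 ± 3.91, Scap at 34 ± 2.17 and Mbtps1 at 32.4 ± 2.5. Srebf1 overlapped with Scap and Scap with Mbtps1. Insig1 was at 23 ± 3.49 and Mylip at 18.6 ± 1.29, which overlapped in range. The lowest were Insig2 at 5.04 ± 0.597, Stard4 at 3.82 ± 0.274 and Mbtps2 at 2.25 ± 0.621, which did not overlap with each other. With PF, Insig1 reached 45.7 ± 6.63 in WT and lay at 21.6 ± 0.434 in KO. Among the members, Srebf1 and Scap ran closest to each other over the 12 libraries, with a root mean square difference of 0.11 in centred log2 CPM, and Insig1 was furthest from its nearest member, Stard4, at 0.41, as was Mbtps2 from Insig2. These libraries also share their depth and their GC trend, so the values are a description.

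Beside the members, genes of the same pathway were taken from 9 lists. In WT BMDMs with PF, 6.99% of all genes tested were higher and 8.95% lower. Of the 21 genes of cholesterol synthesis, 11 rose and 0 fell (median log2 fold change 0.38, against 0 over all genes tested). They included Hsd17b7 (1.04 ± 0.15 SE, adjusted p = 0.00105), Msmo1 (0.79 ± 0.10, adjusted p = 0.000588) and Cyp51 (0.77 ± 0.084, adjusted p = 0.000298), which act on lanosterol and the sterols made from it. Of the 13 tested genes of fatty acid synthesis, 3 rose and 0 fell, led by the desaturase gene Scd2 (0.74 ± 0.089, adjusted p = 0.000454), with Mid1ip1 and Elovl5. With the GC offset, 13 genes of cholesterol synthesis rose and 0 fell, where 362 of all 10822 genes rose and 435 fell. Fatty acid synthesis again had 3 higher and 0 lower genes. Scd2 and Mid1ip1 were at 0.76 and 0.58. Elovl5 lost its call at 0.04 (adjusted p = 0.821), and Fasn gained one (0.38, adjusted p = 0.00168). Of the 15 sterol carriers and sensors, 3 rose, the oxysterol-binding protein genes Osbpl8 (0.77) and Osbpl1a (0.55) and the cholesterol esterifying enzyme gene Soat1 (0.51), and 2 fell, Osbpl7 (−0.47) and Gramd1a (−0.36). Of these 5, only Osbpl8 kept its call under the GC offset (0.37, adjusted p = 0.0198), while Osbpl1a (0.36), Soat1 (0.21), Osbpl7 (−0.20) and Gramd1a (−0.08) had adjusted p values of 0.122 to 0.652. Osbpl3 gained a call there (−0.37, adjusted p = 0.00359). In KO BMDMs with PF, 0 genes of the 9 lists passed the test, beside 0.0554% of all genes. At an unadjusted p below 0.05 were 1 gene of cholesterol synthesis and 2 sterol carriers, beside 4.98% of all genes. Osbpl8 was at 0.69 ± 0.18 SE there (adjusted p = 0.267), with an interaction of 0.08 ± 0.26 (adjusted p = 0.903). The interaction was past the test for genes of cholesterol synthesis that include Hsd17b7, Cyp51 and Msmo1 (1.14, 0.84 and 0.79), and for Scd2 (0.90), with adjusted p values of 0.00811 to 0.0261 for these 4. When each library was left out in turn, Cyp51 and Scd2 kept the call in all 12 fits, and Hsd17b7 and Msmo1 in 3 of 12 (adjusted p up to 0.0946 and 0.0991). All 4 kept it under the GC offset (0.66, 0.92, 0.91 and 0.55 for Cyp51, Scd2, Hsd17b7 and Msmo1). Osbpl1a, Gramd1a, Osbpl3 and Fasn are named here after their values were seen.

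Genes that act directly on the SREBP complex are given beside the 15.9% of all genes that passed the test for PF in WT. Of 13 INSIG and SCAP partners, Rnf139, which encodes an E3 ligase that binds INSIG, rose in WT with PF (0.53 ± 0.14 SE, adjusted p = 0.0242), and Rnf145, an E3 ligase that acts on SCAP, fell (−0.29 ± 0.081, adjusted p = 0.0272). Rnf145 was at 48 to 51.6 CPM in WT with vehicle and at 38 to 43 CPM with PF, while all KO libraries lay at 49.6 to 52.5 CPM, yet its interaction did not pass (−0.28 ± 0.11, adjusted p = 0.286). With the offset, Rnf139 lost its call at 0.08 (adjusted p = 0.801) and Rnf145 was at −0.61 (adjusted p = 0.00057). In KO against WT, the offset moved Rnf145 from 0.03 to −0.61 with vehicle (adjusted p = 0.000145). With PF it moved from 0.31 to −0.09 (adjusted p = 0.474), so the lower level was then no longer particular to WT with PF. Of 10 genes of the COPII coat only Sar1b rose (0.59, adjusted p = 0.0352), a call lost under the offset (0.11, adjusted p = 0.709). Of 9 cofactors of nuclear SREBPs 0 passed, with 3 at an unadjusted p below 0.05, and of 8 other substrates of site-1 protease only Atf6b fell (−0.34, adjusted p = 0.0286), also lost under the offset (−0.05, adjusted p = 0.644). In the LDL uptake list of 16 tested genes, Ube2d3, an E2 enzyme used by IDOL, rose (0.40), and the endocytic receptor gene Lrp1 (−0.47) and the sorting nexin gene Snx17 (−0.32) fell. All 3 calls were lost under the offset, where Ube2d3 changed sign (−0.07) and Lrp1 and Snx17 were at −0.12 and −0.16 (adjusted p 0.145 to 0.752).

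LXR genes bear on Mylip, which is an LXR target. In WT BMDMs with PF, 3 of 8 genes of the LXR list fell and 0 rose, beside 8.95% and 6.99% of all genes. They were Nr1h3 and Nr1h2, which encode LXRα and LXRβ (−0.50 and −0.32), and the phospholipid transfer protein gene Pltp (−0.44), with adjusted p values of 0.00626, 0.0327 and 0.00842. The median of the list was −0.23, against 0 over all genes tested, and Mylip itself was at 0.06. Under the GC offset the median was −0.04, Nr1h3 kept its call (−0.27, adjusted p = 0.0321), and Nr1h2 (−0.06, adjusted p = 0.538) and Pltp (−0.20, adjusted p = 0.0501) lost theirs. The cholesterol exporter gene Abca1 gained a call there (−0.35, adjusted p = 0.0464, against −0.29 and 0.195 without the offset). Its interaction was then past the test (−0.59, adjusted p = 0.0413). The list thus had 0 higher and 2 lower genes, where 362 of all 10822 genes were higher and 435 lower. In KO against WT with vehicle, 29.7% of all genes were higher and 30% lower, so a call was common there. Of the 8 LXR genes, 2 were higher and 4 lower, with the cholesterol exporter gene Abca1 at 0.97 ± 0.15 and Pltp at −0.73 ± 0.093, beside Mylip at 0.43. The offset left 2 higher and 1 lower there, with Abca1 at 0.48 and Pltp at −0.31, both past the test. In the same comparison 4 of the 21 genes of cholesterol synthesis were higher and 12 lower, with Mvd at −0.95 and Fdps at −0.84. With PF, 1 of the 21 was higher and 18 lower, beside 24.1% and 22.9% of all genes. Under the GC offset 0 of the 21 were higher in either comparison, while 14 were lower without PF and 20 with it. Of all 10822 genes, 2191 were lower without PF and 2350 with it under that offset.

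**Figure D4:**
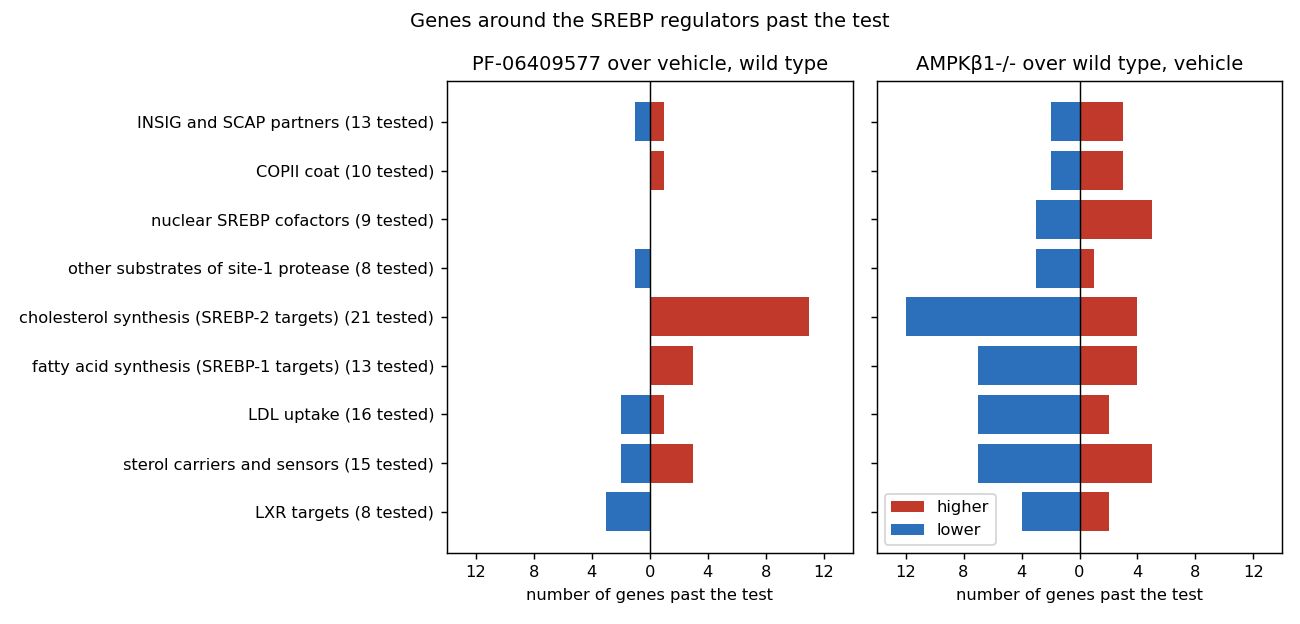
Number of genes past the test (edgeR adjusted p below 0.05) on the x axes, lower to the left in blue and higher to the right in red, for 9 lists around the SREBP regulators on the y axis with the number of genes tested. The left panel is PF over vehicle in WT and the right panel AMPKβ1-/- over WT with vehicle. Cholesterol synthesis has 11 higher and 0 lower genes on the left and 4 higher and 12 lower genes on the right.

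The other lists in KO against WT with vehicle are counted beside 59.7% of all genes called there. Of 13 tested genes, 3 INSIG and SCAP partners were higher and 2 lower, with Erlin1, which encodes an SREBP-retaining ER protein, at 0.58 and Tmem97 at −0.57. The COPII coat, with 10 genes, had 3 higher and 2 lower (Sec23a 0.97, Sec13 −0.29), the nuclear cofactors 5 and 3 (Ep300 0.66, Lpin1 −0.53), and the other substrates of site-1 protease 1 and 3 (Creb3 −0.52). Fatty acid synthesis had 4 higher and 7 lower genes (Mid1ip1 and Scd2 both −0.63), LDL uptake 2 and 7 (Ccdc22 −0.58, Snx17 −0.55), and the sterol carriers 5 and 7 (Osbpl8 1.46, Osbpl9 0.66). The genes named here passed the test in this comparison. Under the GC offset, Sec23a (0.05, adjusted p = 0.796), Sec13 (−0.01, adjusted p = 0.945) and Osbpl8 (0.06, adjusted p = 0.663) lost their calls, and the other genes named here kept call and direction, with Osbpl9 at 0.27. The COPII coat then had 1 higher and 0 lower genes, the sterol carriers 2 and 4, the INSIG and SCAP partners 1 and 4, the nuclear cofactors 3 and 2, the other substrates of site-1 protease 0 and 2, LDL uptake 0 and 12, and fatty acid synthesis 0 and 7. These counts under the offset stand beside 1506 higher and 2191 lower genes of all 10822, not beside the 59.7%.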

How the data were processed

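RNA sequencing data of 12 libraries of BMDMs were used. The authors used Trim Galore for trimming and Salmon for quantification, and the deposited values are estimated counts per gene as whole numbers, not normalized, for 12960 genes. The genome build, the version and bias options of Salmon and the filter on low counts are not given in the sources used here. The library kit marks strand, and the counting options were not given.

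The column names of the count table gave genotype and treatment. The main test was that of edgeR 4.0.16 in R 4.3.3 (quasi-likelihood test, robust, TMM, filterByExpr), in 1 fit of the 4 group means, with Benjamini-Hochberg adjustment over 10822 genes. SEs were derived from the fold change and F and are approximate. Alternatives were DESeq2 1.42.0 and limma 3.58.1 (voom), other scalings and filters, the libraries of a comparison alone, a replicate block, each library left out, and an offset for GC content and length (natural splines with 5 degrees of freedom). GC content and gene positions came from GENCODE M21 on GRCm38, matched by symbol (12703 genes by symbol, 194 by another symbol, 63 not matched), and promoters from RefSeq on GRCm38.p6. GC was known for 99.7% of tested genes. Deviations of libraries with the same number correlated at −0.17 to 0.32 over 12 pairs, so numbers were not read as a pairing. The tests were checked on simulated counts.

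The genes named are the members, Prkab1, per list the 3 smallest p for PF in WT and the 2 smallest for genotype with vehicle, and the 2 genes most like a member. The members and lists were chosen with earlier results of these data known. Values of some genes that the rule picks are not reported here. Protein sequences and the reads were not analysed here.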

Additional observations from a re-analysis of the deposited data

Results flagged for a closer look

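The response of Insig1 to PF differed between the genotypes by a test of the difference itself, with an interaction of 1.07 on the log2 scale (edgeR adjusted p = 0.0133). Its level rose from 62.2 ± 9.41 to 123 ± 17.9 CPM (SD, n = 3) in WT and went from 61.7 ± 4.22 to 58.4 ± 1.17 CPM in KO BMDMs. No other member had an interaction past the test, and Stard4 had the next smallest p (0.78, adjusted p = 0.229).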

How the results depend on the processing

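The rise of Insig1 with PF in WT and its lower level in KO with PF, and the genotype differences of Srebf2 and Mylip, kept their direction and an adjusted p below 0.05 in all 22 settings. Of all values of single members under an alternative, 861 kept direction and side of the threshold, 27 lost and 13 gained the call, 32 changed sign with neither value called, and 3 changed sign with a value called. These 3 were Mbtps2 in KO against WT (−0.31 with vehicle, −0.30 with PF) and Stard4 with vehicle (−0.28), all with the GC content and length trend removed. The cause was not tested beyond the offset itself. The number of members past the test for PF in WT was 1 with the libraries of the groups compared alone, and 1 to 6 with a library left out. It was 1 without WT vehicle 1, WT vehicle 3, WT PF 2 or WT PF 3, and 6 without WT PF 1. For KO against WT with vehicle it was 1 with the 0.8 threshold and 3 with the trend removed, and with PF it was 2 with the 0.8 threshold. For the interaction it was 0 to 2 with a library left out, 0 without KO vehicle 2 or KO PF 1 and 2 without WT PF 1. Library size alone in place of TMM moved the median of all genes to 0.183 in KO against WT with vehicle and 0.146 with PF, and the members called there were 4 higher and 1 lower with vehicle (4 and 3 with TMM). All genes split into 4296 higher and 1600 lower there, against 3216 and 3249 with TMM. Over all genes, 1725 passed the test for PF in WT, 419 with the libraries compared alone, 797 with the trend removed and 346 to 3243 with a library left out (539 without WT vehicle 1, 699 without WT vehicle 3, 453 without WT PF 2). The interaction passed in 45 genes, in 181 with the trend removed, 198 with DESeq2 and 5 to 284 with a library left out. PF in KO had 6, and 0 to 62 over the settings. KO against WT with vehicle had 6465, and 3697 with the trend removed. Among the list genes named for PF in WT, Hsd17b7, Msmo1, Cyp51, Scd2, Mid1ip1, Soat1, Nr1h3 and Pltp kept the call in all 12 fits with a library left out, and the rest in 4 to 10. The trend offset gave 1 higher and 2 lower members in KO against WT with vehicle, and 1 and 4 with PF (2 and 2 without it). Of all 10822 genes, it gave 1506 higher and 2191 lower with vehicle, and 1759 and 2350 with PF (2613 and 2481 without it). For Insig2 with vehicle the call held in 11 of 22 settings, and for Stard4 with PF in WT in 17 of 22. The replicate block gave 3, 0, 7, 4 and 1 members past the test for PF in WT, PF in KO, KO against WT with vehicle and with PF, and the interaction, and added only Scap (−0.31, adjusted p = 0.0351). Mbtps2 in WT with vehicle rested on 69 to 140 counts a library, the fewest of any member and group.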
